A study of Homo sapiens with 2 samples.

Results

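The annexins are described here as the 10 genes ANXA1, ANXA2, ANXA3, ANXA4, ANXA5, ANXA6, ANXA7, ANXA9, ANXA10 and ANXA11, chosen by name, with every array probe that carried one of these names. They made up 10 of the 30238 gene names and 14 of the 41000 probes of the array. ANXA2 and ANXA11 had 3 probes each and the other 8 genes had 1. The arrays held RNA of derivatives of A2780, a human ovarian carcinoma line. A2780CBN had been selected in rising doses of carboplatin up to 22.2 µM, and A2780CBNDXL in rising doses of carboplatin together with docetaxel, for which the labels give 8.02 µM of the combination. In the text of the study the same figure is a half-inhibitory concentration of carboplatin and not a selection dose. Each was compared with A2780CC, the co-cultured parental A2780 cells, of which a separate control was developed for each selected line. By the account of the study the resistant lines are populations of cells, not 1 clone each. RNA of 3 isolations was pooled for each line, and the pool was hybridised against control RNA on 4 two-colour arrays, with forward and reverse dye labelling on each of 2 slides. The 4 arrays therefore repeat 1 sample, every SD below is a spread between arrays, and no test between cultures could be made.

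Annexins are cytosolic proteins that bind negatively charged phospholipids when calcium rises, through repeats of a conserved core that differ little between family members. Their N-terminal tails differ and carry the sites for partners such as the small calcium-binding S100 proteins. The family is known for membrane repair, vesicle traffic and exocytosis, for the anti-inflammatory action of ANXA1 through formyl peptide receptors, and for the plasminogen-binding complex of ANXA2 with S100A10 at the cell surface. In ovarian carcinoma, ANXA4 has been studied for its association with resistance to platinum drugs.

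Because the core is shared, the probes are shown first, as the sequences that decide which member each signal belongs to. All coordinates are those of the array files on NCBI36, and each probe is 60 bases long. The probes of ANXA1 (chr9:74974822-74974881, plus strand), ANXA4 (chr2:69906253-69906312, plus strand) and ANXA9 (chr1:149234007-149234066, plus strand) carried the largest changes, and their first 30 bases are given in lower case.
ANXA1: ggctctttgtggaggaaactaaacattccc
ANXA4: aattaaaacgcctacagctgcctcctagaa
ANXA9: ttctttaaaatcccttaattttcccatctc
The probes of ANXA2 (chr15:58427172-58428616, minus strand), ANXA3 (chr4:79744519-79750234, plus strand) and ANXA6 (chr5:150463327-150463386, minus strand) showed the highest similarity among the members, so they are given whole. Capitals mark the bases that all 3 share when ANXA2 and ANXA6 are aligned to ANXA3 without gaps.
ANXA2: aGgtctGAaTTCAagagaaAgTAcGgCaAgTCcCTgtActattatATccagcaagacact
ANXA3: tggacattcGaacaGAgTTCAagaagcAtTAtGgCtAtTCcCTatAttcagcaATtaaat
ANXA6: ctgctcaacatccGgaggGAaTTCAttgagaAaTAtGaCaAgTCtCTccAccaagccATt
The probes of ANXA2 and ANXA3 span 1445 and 5716 bases of the genome and so cross an intron, whereas the ANXA6 probe lies within 60 bases. In the shared 48 positions, 20 were identical in all 3. The pair ANXA3 and ANXA6 had 34 identical bases over an overlap of 56 (60.7%), the highest count of the 45 pairs of members. ANXA2 and ANXA3 had 29 over 52 (55.8%). The signals of these 3 members also differed. No array had the ANXA3 probe well above background, while ANXA2 and ANXA6 were well above it in both channels of every array. Of the 14 member probes, 13 matched a RefSeq transcript of the same symbol in a GRCh38.p14 table, and the dim ANXA11 probe A_32_P150632 had no RefSeq accession to match.

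Expression of the cell type markers was as follows. The epithelial genes PAX8, EPCAM, KRT8 and KRT18 were detected in both lines. WT1, MUC16 and CDH1 were near background throughout, and VIM was among the strong signals. By the 2-fold rule given below, EPCAM was higher in both lines, at log2 ratios of 2.07 in A2780CBN and 1.67 in A2780CBNDXL. KRT18 and VIM passed as higher in A2780CBN only, at 1.05 and 1.08. CDH2, listed with VIM as a mesenchymal marker, had log2 ratios of -0.21 (A2780CBN) and 1.55 (A2780CBNDXL). It passed in neither line, and in A2780CBNDXL both channels were well above background on 3 arrays. In the same order, KRT19 gave -0.48 and 0.92 and KRT8 gave -0.37 and 0.18, and neither gene passed. Of 5 leukocyte markers, PTPRC, LYZ and ITGB2 were not well above background in either line or its control. CD14 and CD68 were well above it in every channel, and the summed signal of the 5 lay between 134 and 254 across all channels. Of 4 endothelial markers, PECAM1, CDH5 and KDR were not well above background on any array and VWF was on some, with summed signals of 34.8 to 64.0. The summed signal of the fibroblast list (COL1A1, COL3A1, DCN, LUM and PDGFRA), most of it from COL3A1, was 36865 to 46385 in A2780CBN against 12694 to 19315 in its control, and 52636 to 71994 in A2780CBNDXL against 16434 to 22953. All 5 genes passed the 2-fold rule given below as higher in A2780CBNDXL. In A2780CBN, 3 were higher, COL1A1 stayed under the limit and PDGFRA was lower, at a log2 ratio of -1.85. The part of these genes in the annexin values was not tested. The share of spots well above background was 59.8% to 67.5% by channel, and 165 to 1006 of 43376 spots were set aside as outliers.

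The call was a 2-fold rule. It asked for a mean log2 ratio (resistant line over control) of at least 1 in size, for one sign on all 4 arrays, and for 1 channel that stood well above background on all of them. In A2780CBN, 2 of the 7 annexins that could be assessed passed. ANXA1 fell and ANXA4 rose. Over all genes assessed, 12.5% passed in that line (2275 of 18187), with 7.93% higher and 4.58% lower. In A2780CBNDXL, 3 of 8 passed, with ANXA1 and ANXA9 lower and ANXA2 higher, beside 16.9% of all genes (2937 of 17413), 7.7% higher and 9.17% lower. In so short a list these counts say nothing about the family as a whole. The median log2 ratio of the assessed annexins was 0.62 in A2780CBN against -0.06 over all genes, and 0.0015 in A2780CBNDXL against 0.04. ANXA3 and ANXA10 were assessed in neither line because of low signal, and ANXA5 was not assessed in A2780CBN because its spot on array 4 was set aside as an outlier.

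**Figure D1:**
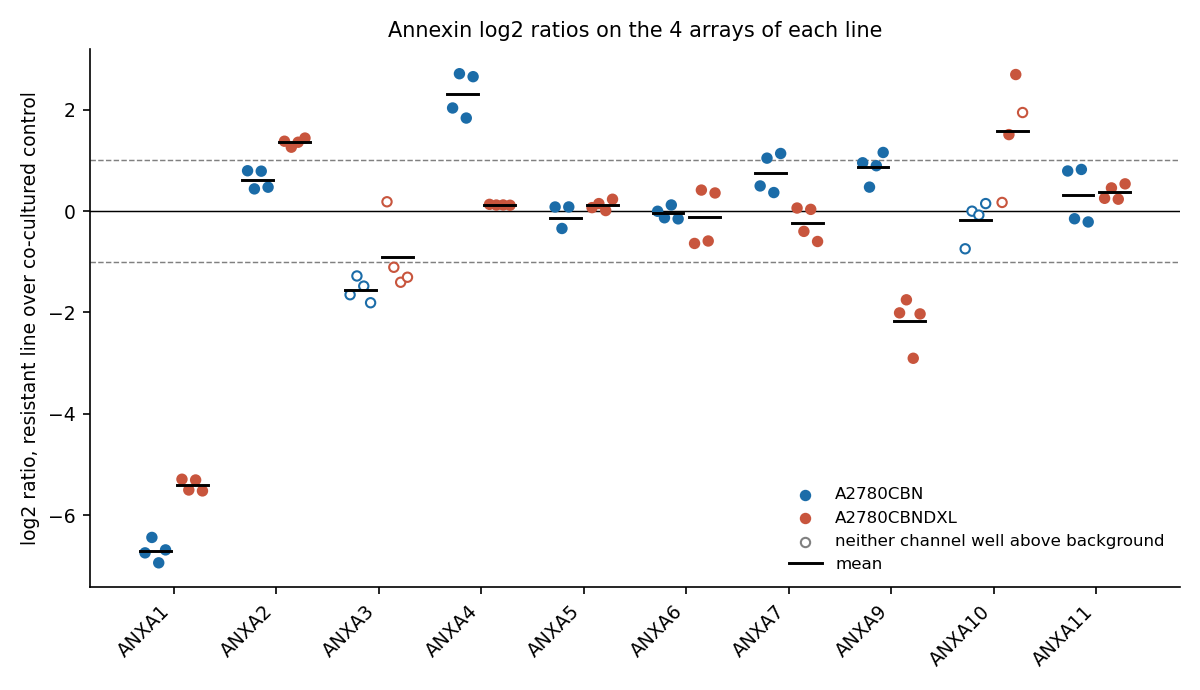
Log2 ratio of resistant line over co-cultured control (vertical axis) for the 10 annexins (horizontal axis), with a point for each of the 4 arrays of A2780CBN and of A2780CBNDXL and a black bar for their mean. Dashed lines mark a 2-fold difference and open points an array on which neither channel was well above background. ANXA1 lies at -6.94 to -5.29 in both lines, and ANXA4 lies at 1.84 to 2.71 in A2780CBN and at 0.12 to 0.13 in A2780CBNDXL.

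ANXA1, a glucocorticoid-induced protein that restrains phospholipase A2 and signals through formyl peptide receptors, had the largest ratio of the family in both lines. In A2780CBN the processed signal of the resistant line was 109, 112, 80.2 and 84.8 on arrays 1 to 4, and that of the control was 11646, 9742, 9850 and 8732. In A2780CBNDXL the line gave 654, 570, 560 and 500, and its control 25598, 25872, 22142 and 22979. The ranges of line and control did not overlap in either line, and the line channel was well above background on all 8. The log2 ratio was -6.70 ± 0.21 (SD, n = 4 arrays) in A2780CBN, a 104-fold lower signal, and it was -5.41 ± 0.12 (SD, n = 4 arrays) in A2780CBNDXL, a 42.4-fold lower signal. ANXA1 had the 6th lowest ratio of 18187 genes in A2780CBN and the 55th lowest of 17413 in A2780CBNDXL. With normexp background correction and loess normalization, the log2 ratio was -4.87 in A2780CBN and -4.92 in A2780CBNDXL.

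CARTPT and MAP2 were among the named genes with ratios closest to those of ANXA1 over the 8 arrays, out of 12126 compared. CARTPT, the precursor of the CART neuropeptides, was at a Euclidean distance of 1.45 in log2 units, with log2 ratios of -6.02 ± 0.35 in A2780CBN and -5.34 ± 0.20 in A2780CBNDXL (SD, n = 4 arrays each). MAP2, a microtubule-associated protein of neurons, was at a distance of 2.83, with log2 ratios of -5.72 ± 0.58 and -4.85 ± 0.99 (SD, n = 4 arrays each).

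ANXA4, which binds membranes of secretory epithelia, was higher in A2780CBN. The line gave signals of 4279, 4014, 2958 and 4094 against 1043, 613, 828 and 651 in the control. In A2780CBNDXL the line gave 1804, 2119, 1591 and 1746 against 1644, 1949, 1462 and 1611. The ranges of line and control were apart in A2780CBN and overlapped in A2780CBNDXL, where the line was nevertheless slightly above the control on each array. The log2 ratio was 2.31 ± 0.44 (SD, n = 4 arrays) in A2780CBN, or 4.96-fold, with 1.94 on the forward and 2.68 on the reverse arrays. In A2780CBNDXL it was 0.12 ± 0.0075 (SD, n = 4 arrays), which did not pass.

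ANXA2, the plasminogen and tissue plasminogen activator receptor that pairs with S100A10, was higher in A2780CBNDXL. With the probe that stands for the gene, the line gave 32037, 59721, 48238 and 48546 and the control 12310, 24903, 18793 and 17867. The line was above the control of the same array each time, and the 2 ranges did not overlap. In A2780CBN the line gave 30481, 25186, 23563 and 20390 and the control 17542, 18576, 13638 and 14696. The log2 ratio was 1.36 ± 0.07 in A2780CBNDXL, or 2.57-fold, and 0.62 ± 0.20 in A2780CBN, or 1.54-fold (SD, n = 4 arrays each). The latter had the same sign on all arrays and stayed under the 2-fold limit.

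The 3 ANXA2 probes gave log2 ratios of 1.15 to 1.36 in A2780CBNDXL and of 0.40 to 0.62 in A2780CBN. Of these, A_32_P94798 had a value on 3 arrays of A2780CBNDXL. The array also named ANXA2P1 and ANXA2P3, processed pseudogenes of ANXA2. ANXA2P1 was at 1.41 ± 0.20 in A2780CBNDXL and at 0.72 ± 0.38 in A2780CBN, and ANXA2P3 at 1.33 ± 0.06 and 0.63 ± 0.30 (SD, n = 4 arrays each). Both passed the 2-fold rule in A2780CBNDXL and neither did in A2780CBN. The sequences of the ANXA2P1 and ANXA2P3 probes were not compared with ANXA2. Whether their signal came from the copies or from the ANXA2 transcript was not tested.

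**Figure D2:**
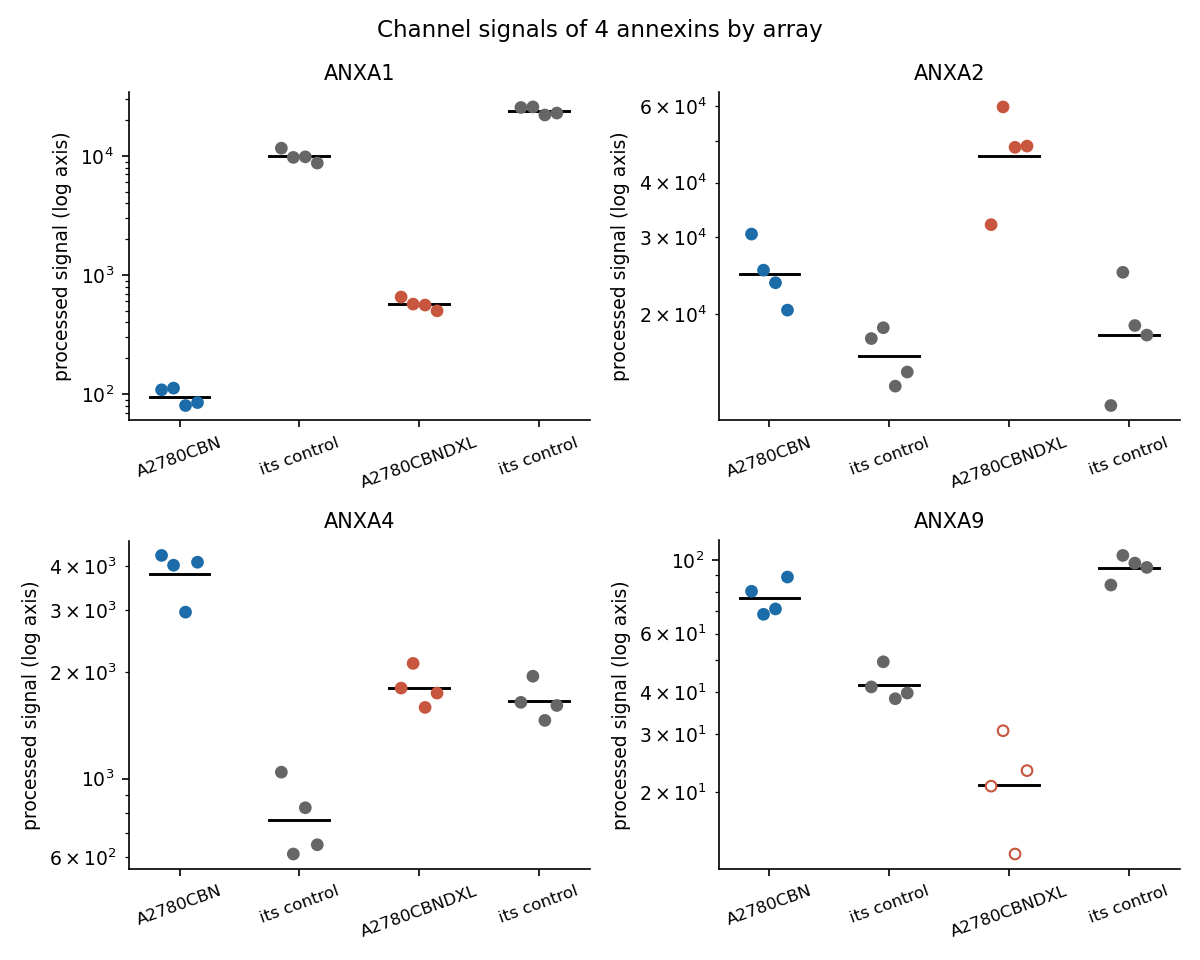
Processed signal on a log axis (vertical) of ANXA1, ANXA2, ANXA4 and ANXA9 in the resistant line channel (coloured) and the control channel (grey) of each array, with bars at the geometric mean of the 4 arrays and open points where the channel was not well above background. The ANXA1 control channels lie at 8732 to 25872 and the resistant lines at 80.2 to 654, and the ANXA9 points of A2780CBNDXL, at 13.1 to 30.7, are all open.

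ANXA9 is an atypical annexin whose core has lost calcium-binding residues. In A2780CBNDXL its line channel gave 20.9, 30.7, 13.1 and 23.3, not well above background on any array, and its control 84.0, 103, 97.8 and 94.9. The control level was 4.08-fold above the lowest signal still well above background, on channels scaled between arrays. That value is not a strict lower bound on the fall, since the gap on array 2 was smaller (log2 ratio -1.75). The fitted log2 ratio, -2.17 ± 0.50 (SD, n = 4 arrays), rests on the dim signals of the line channel. It was -0.37 with normexp and loess, where ANXA9 was no longer counted. In A2780CBN the line gave 80.5, 68.6, 71.2 and 88.8 and the control 41.5, 49.4, 38.3 and 39.8, all well above background and not overlapping. The log2 ratio there was 0.87 ± 0.29 (SD, n = 4 arrays), under the limit, and it exceeded it without array 2.

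ANXA7, or synexin, which promotes membrane fusion in secretory cells, had a log2 ratio of 0.76 ± 0.39 in A2780CBN, positive on all arrays. It was 0.43 on the forward arrays and 1.09 on the reverse ones. In A2780CBNDXL it was -0.23 ± 0.33, with signs that differed between arrays (SD, n = 4 arrays each). ANXA5, the phosphatidylserine-binding protein used as a stain for dying cells, was at -0.13 ± 0.25 over the 3 arrays with a value in A2780CBN and at 0.12 ± 0.10 over 4 arrays in A2780CBNDXL. Its mean signals were 19275 in A2780CBN and 20202 in the control, and 25596 in A2780CBNDXL and 23696 in its control.

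ANXA6, whose conserved core is duplicated, gave -0.04 ± 0.13 in A2780CBN and -0.11 ± 0.58 in A2780CBNDXL (SD, n = 4 arrays each). In the latter the mean was -0.61 on the forward and 0.39 on the reverse arrays, so the sign followed the dye. ANXA11, a partner of PDCD6 and S100A6, had the same dependence in A2780CBN with its brightest probe, 0.81 forward and -0.18 reverse, for a mean of 0.31 ± 0.57. In A2780CBNDXL it was 0.37 ± 0.15, positive on all arrays. Its other probes gave -0.20 and -0.77 in A2780CBN, the opposite sign, and 0.04 and 0.06 in A2780CBNDXL. No ANXA11 probe had a mean beyond 2-fold in either line.

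**Figure D3:**
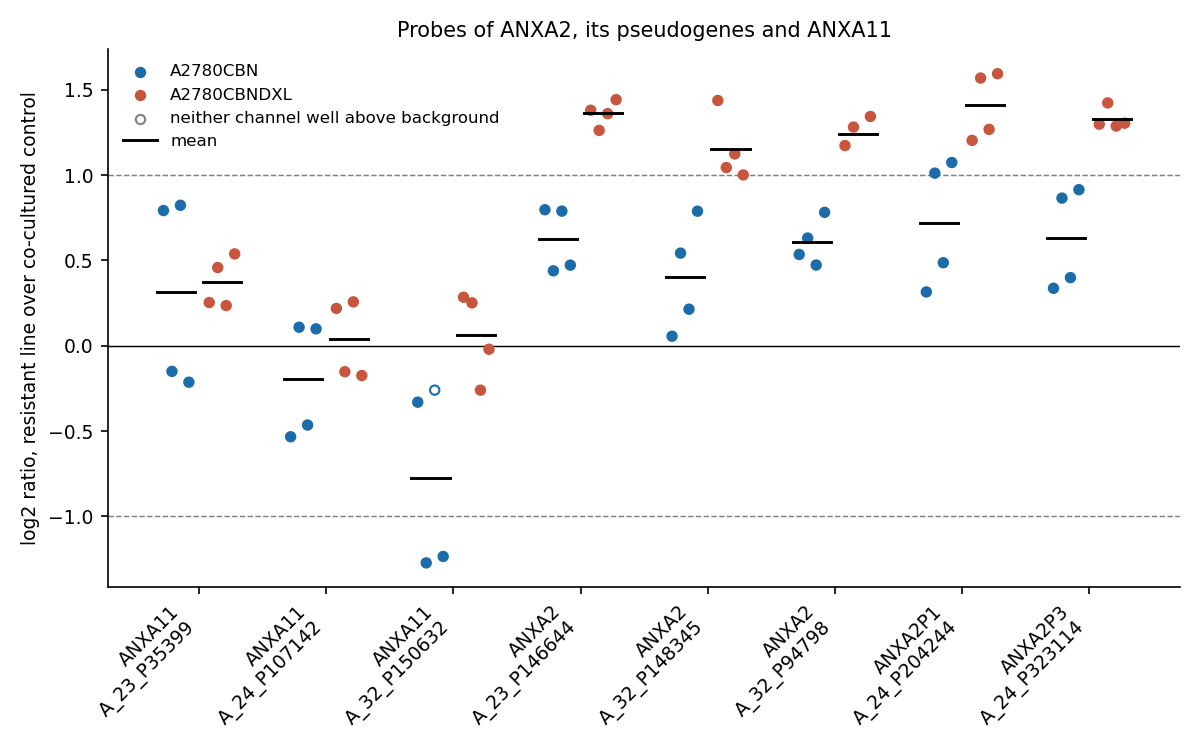
Log2 ratio of resistant line over control by array (vertical axis) for the 3 probes of ANXA11, the 3 probes of ANXA2 and those of ANXA2P1 and ANXA2P3 (horizontal axis), with black bars for means and dashed lines at 2-fold. The 5 ANXA2 and pseudogene probes had means of 1.15 to 1.41 in A2780CBNDXL and of 0.40 to 0.72 in A2780CBN, while the ANXA11 probes lay on both sides of 0 in A2780CBN.

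ANXA3 stayed near background in every channel, with signals of 4.99 to 19.1 in the lines and 13.2 to 17.5 in the controls, and no ratio is given. ANXA10, an annexin of gastric epithelium, was well above background on 2 of 4 arrays in the A2780CBNDXL channel, which gave 24.4, 38.8, 33.8 and 24.8. Its control gave 21.6, 13.6, 5.22 and 6.43, never well above background, and the gene was not assessed. In A2780CBN neither channel was detected. Of the other annexin names on the array, both ANXA13 probes stayed near background in all channels. The probe named ANXA8L2, whose accessions match both ANXA8 and ANXA8L1 in current annotation, gave 84.2, 125, 91.8 and 119 in A2780CBN against 24.4, 31.1, 33.1 and 19.0 in the control. Its log2 ratio was 1.98 ± 0.50 (SD, n = 4 arrays), which passed, although its control was detected on just 1 of 4 arrays. In A2780CBNDXL the line was well above background on 2 of 4 arrays and the gene was not assessed.

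The resistant lines were next compared with each other, and the controls with each other, to see on which side the ratios differed. Channels were scaled between arrays by the Aquantile method, and a gene counted when the means differed 2-fold, the 4 values of each side did not overlap, and the probe was well above background on all arrays of a side. Between the resistant lines, 3 of 7 annexins passed, 1 higher in A2780CBNDXL and 2 lower, against 16% of all genes (2809 of 17586), with 6.47% higher and 9.5% lower. ANXA1 was 5.49-fold higher in A2780CBNDXL than in A2780CBN, a log2 difference of 2.46 ± 0.19 (SE from 4 and 4 arrays). ANXA4 was 2.30-fold higher in A2780CBN (log2 difference of A2780CBNDXL minus A2780CBN -1.20 ± 0.14, SE). For ANXA9, the level of A2780CBN was 3.43-fold above the lowest signal still well above background, and A2780CBNDXL was near background. ANXA2 was 1.69-fold higher in A2780CBNDXL with ranges apart and did not pass, and ANXA11 was 1.59-fold higher in the same way.

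Between the co-cultured controls, 2 of 7 annexins passed, both higher in the control of A2780CBNDXL, against 4.4% of all genes (764 of 17381), with 3.19% higher and 1.2% lower. ANXA1 was 2.23-fold and ANXA9 2.18-fold higher in the control of A2780CBNDXL than in that of A2780CBN, with log2 differences of 1.16 ± 0.13 and 1.12 ± 0.08 (SE from 4 and 4 arrays). ANXA4 was 1.98-fold higher, 0.99 ± 0.17 (SE), just under the limit, and its ranges were apart. It passed under quantile normalization and under median scaling, at 1.00 and 1.06. ANXA2 was at 0.02 ± 0.22 (SE). The levels of ANXA4 on the common log2 scale were 11.96 in A2780CBN and 9.65 in its control, and 10.75 in A2780CBNDXL and 10.63 in its control. A2780CBN was thus the highest and its control the lowest. The levels of A2780CBNDXL and its control were close and had SDs of 0.16 and 0.15 over arrays, although the line was above its control within each array, as given above. For ANXA1 the order was 14.49 in the control of A2780CBNDXL, 13.33 in that of A2780CBN, 9.09 in A2780CBNDXL and 6.63 in A2780CBN, and each step exceeded the spread.

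Each line was also read against the control channels on the arrays of the other line. There ANXA1 was lower in both (-7.86 in A2780CBN and -4.25 in A2780CBNDXL) and ANXA2 higher in A2780CBNDXL (1.38). ANXA4 was higher in both, at 1.32 and 1.11. ANXA9 was at -0.25 in A2780CBN, with the sign turned, and at -1.05 in A2780CBNDXL. Each control is a single pooled sample on the arrays of its own line. A difference between controls and a difference between those arrays therefore cannot be told apart. Each slide held arrays of both lines.

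**Figure D4:**
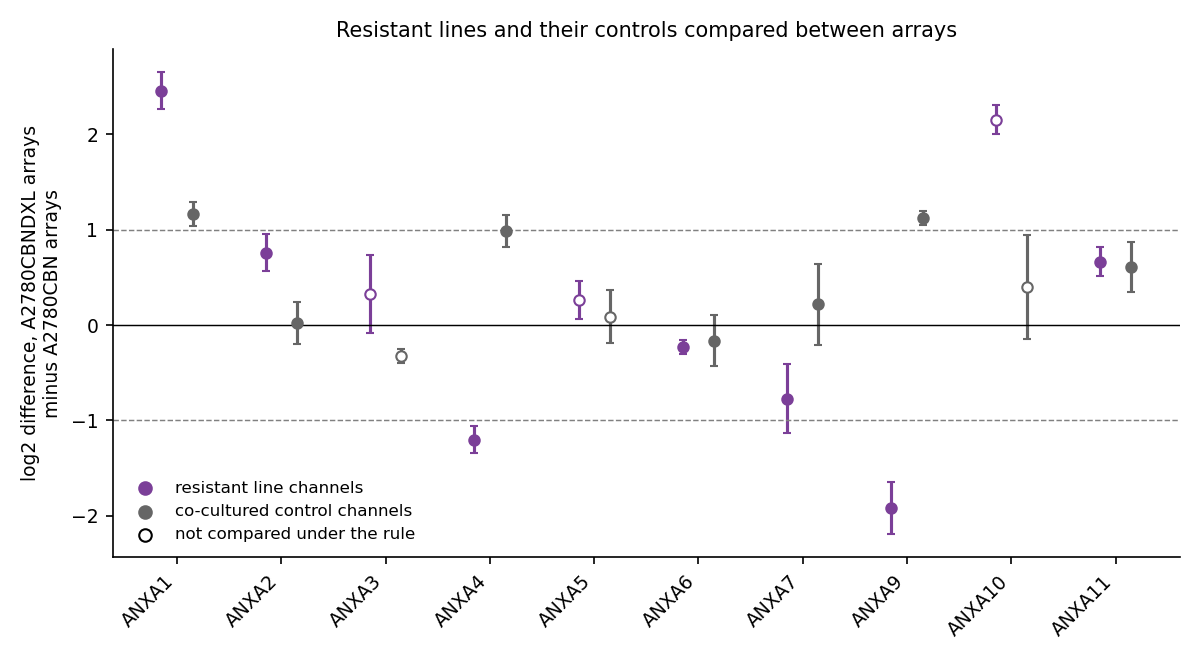
Log2 difference of A2780CBNDXL arrays minus A2780CBN arrays (vertical axis) for each annexin, in the resistant line channels (purple) and in the control channels (grey), with bars for the SE from 4 and 4 arrays, dashed lines at 2-fold and open points for genes not compared under the rule. ANXA4 and ANXA9 lie below 0 in the resistant lines, at -1.20 and -1.92, and above 0 in the controls, at 0.99 and 1.12.

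A list of 23 annexin partners and effectors was read beside the family. In A2780CBN 6 of the 16 that could be assessed passed the 2-fold rule, 4 higher and 2 lower, and in A2780CBNDXL 9 of 19, 3 higher and 6 lower. The share of all genes was 12.5% and 16.9%. The median log2 ratio of the assessed partners was 0.0010 in A2780CBN against -0.06 over all genes, and 0.09 in A2780CBNDXL against 0.04.

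Among the S100 proteins, S100A11, a partner of ANXA1, went in opposite directions. In A2780CBN the line gave 775, 497, 679 and 477 against 1160, 1805, 1074 and 1662, and in A2780CBNDXL 7256, 8913, 6878 and 8035 against 2141, 2408, 1951 and 1906. The log2 ratios were -1.23 ± 0.70 and 1.89 ± 0.14 (SD, n = 4 arrays each), and the second S100A11 probe gave -1.31 and 2.00. In A2780CBN the fall was -0.62 on the forward and -1.83 on the reverse arrays. S100A10, the ANXA2 partner, was dim. It fell in A2780CBNDXL (-1.42 ± 0.22), where the line gave 23.6 to 34.9 and the control 58.5 to 92.1. In A2780CBN its control was not well above background and it was not assessed. S100A4, a metastasis-associated protein that binds ANXA2, was at 1.01 ± 0.08 in A2780CBNDXL, just past the limit, and at 1.24 ± 0.25 over 3 arrays in A2780CBN. S100A6, the ANXA11 partner, stayed near background throughout.

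Of the 4 genes of plasminogen activation, the surface reaction that ANXA2 and S100A10 assist, 3 fell in A2780CBNDXL, where 9.17% of all genes were lower. PLAU, the urokinase, gave 154, 131, 148 and 104 in the line against 1672, 2032, 1689 and 1639 in the control, 13.2-fold lower (log2 ratio -3.72 ± 0.29, SD, n = 4 arrays). PLAUR, its receptor, was at -1.18 ± 0.25. PLAT, the tissue activator, was at -1.14 ± 0.13, with the line not well above background on any array. In A2780CBN these genes were at -0.75, -0.15 and 0.25 and did not pass. PLG, plasminogen itself, had 1 probe of 4 above background, at 0.73 and -0.83, under the limit in both lines. ANXA2, the receptor in this reaction, was higher in A2780CBNDXL, as given above.

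Of the membrane repair genes, AHNAK, a giant scaffold that ANXA2 and S100A10 hold at the membrane, rose in A2780CBN with signals of 1190, 1183, 1388 and 1672 against 185, 140, 198 and 185. Its log2 ratio was 2.94 ± 0.23 in A2780CBN and 0.61 ± 0.19 in A2780CBNDXL, and the 5 probes named AHNAK ranged from 0.27 to 2.94 in A2780CBN. DYSF, dysferlin, which ANXA1 and ANXA2 bind at wounds, rose in A2780CBN (1.41 ± 0.08) and was at 0.53 ± 0.48 in A2780CBNDXL. CAPN1, the calcium protease that cleaves annexins at such sites, was at 1.27 ± 0.52 in A2780CBNDXL and 0.22 ± 0.49 in A2780CBN, and its dimmer probe gave -0.39 and -0.97. CAPN2 and TRIM72 passed in neither line (SD, n = 4 arrays for all).

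Effectors of ANXA1 and ANXA6 were also read. PLA2G4A, the cytosolic phospholipase that ANXA1 restrains, fell in A2780CBN by at least 2.32-fold, its line channel being near background. In A2780CBNDXL it gave 28.9, 29.2, 30.2 and 22.3 against 154, 207, 156 and 170 (log2 ratio -2.63 ± 0.28, SD, n = 4 arrays), with the line well above background on 2 arrays. TRPM7, the channel kinase that phosphorylates ANXA1, rose in A2780CBN (2.24 ± 0.14) and was at -0.35 ± 0.05 in A2780CBNDXL. Its second probe gave 1.65 and -0.25. PRKCA, a protein kinase C that ANXA6 recruits, rose in A2780CBN, with 533, 558, 480 and 599 against 163, 125, 140 and 121. In A2780CBNDXL it fell, with 47.9, 43.8, 64.8 and 50.1 against 199, 386, 276 and 395. Its log2 ratios were 1.99 ± 0.29 and -2.57 ± 0.57 (SD, n = 4 arrays each). The formyl peptide receptors FPR2 and FPR3 were not well above background on any array, and FPR1 on some arrays only. PDCD6, SRI and RASA1 were under 2-fold in both lines. With normexp and loess, S100A11, DYSF and PLA2G4A no longer passed in A2780CBN, and S100A10, S100A4, PLA2G4A, PLAT and PRKCA no longer did in A2780CBNDXL. Against the control of the other line's arrays, PRKCA was at 0.88 in A2780CBN and did not pass, while S100A10 (-1.55) and PLAU (-1.30) passed there as lower. AHNAK then passed as higher in A2780CBNDXL too, at 1.68. The calls of S100A11, PLAU and PRKCA held in A2780CBNDXL, while the other 6 genes that had passed there were not called. Of these, S100A10 turned from -1.42 to 1.42 and S100A4 was at 2.05, and neither could be assessed there. CAPN1 was at 0.98 and PLA2G4A at -0.98, both just under the limit. S100A4 was also lost in A2780CBNDXL without array 3 or without array 4. CAPN1 was not called there on the forward arrays alone (0.81) or with the mean of all probes, PLAUR not on the reverse arrays alone (-0.96), and S100A11 in A2780CBN not on the forward arrays alone.

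**Figure D5:**
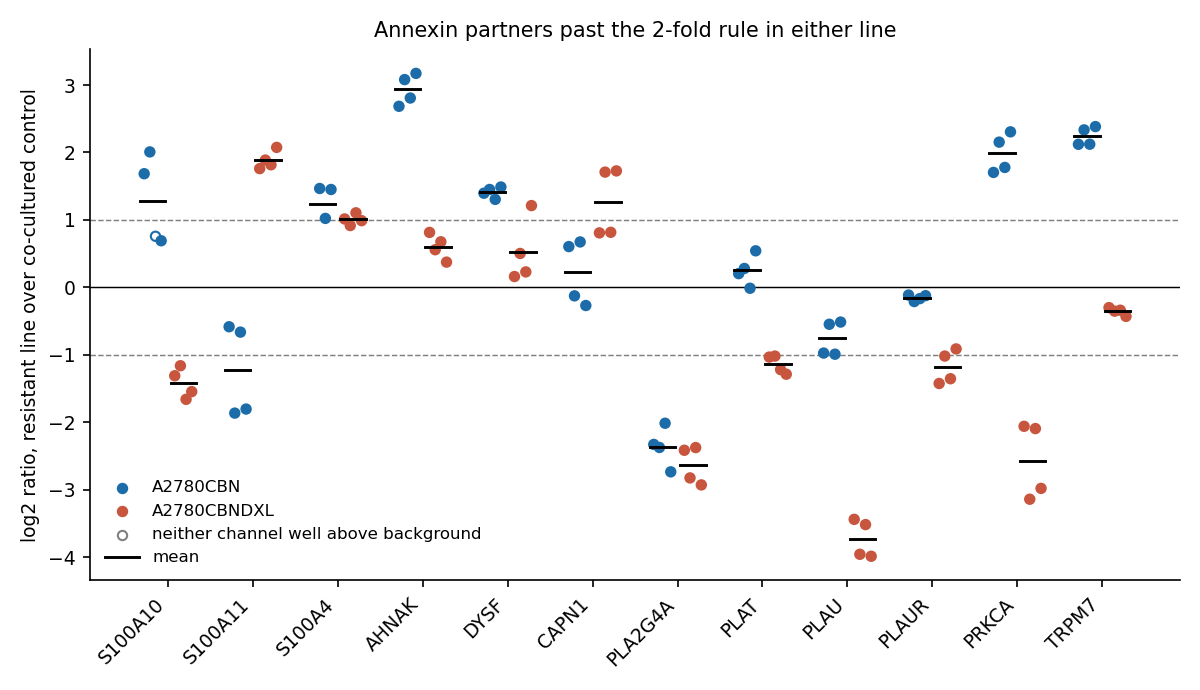
Log2 ratio of resistant line over control by array (vertical axis) for the 12 annexin partners past the 2-fold rule in either line (horizontal axis), with black bars for means, dashed lines at 2-fold and open points where neither channel was well above background. S100A11 and PRKCA lie on opposite sides of 0 in A2780CBN and A2780CBNDXL, with means of -1.23 and 1.89 and of 1.99 and -2.57, and PLA2G4A lies below 0 in both.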

How the data were processed

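RNA of A2780CBN and A2780CBNDXL was hybridised against co-cultured control RNA on 8 Agilent arrays, 4 per line. The authors deposited Feature Extraction output (versions 10.7.1.1 and 10.7.3.1, 1 per slide), in which the processed intensity of each channel is background-subtracted and dye-normalized within the array. The deposited raw mean, background and background-subtracted intensities were used for alternatives only. Per the deposited sample notes the resistant line carries Cy5 and the control Cy3 on forward arrays. The entries for reverse arrays repeat this, against their name and the methods, so these arrays were turned as named. Log2 ratios of opposite labellings then correlated at 0.58 to 0.74 and of like labellings at 0.85 to 0.90.

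Outlier spots were left out and spots of a probe averaged. A gene stood by its probe with the highest mean processed signal, taken among probes with a value on all 8 arrays where there was one. Log2 ratios were averaged within each labelling and then over both. Channels were scaled between arrays with limma 3.58.1 (Aquantile) in R 4.3.3. The number of arrays limits the precision. Alternatives were normexp (offset 50) with loess, median-centred background-subtracted intensities, left-out arrays, single slides or labellings, the mean over probes, other background filters, fold limits of 1.5 and 3, quantile and median scaling, and limma and 3-way ANOVA on arrays at an adjusted p of 0.05, whose error is between arrays only. The other line's control, and the brightest probe with 3 arrays allowed, were added after seeing the data. The limma and ANOVA fits were also run on simulated log2 values with known changes. Loading of the arrays and scaling of the channels were not run on simulated arrays. The genes named were all members with their probes, partners past the 2-fold rule, other names starting with ANXA, and the 3 named genes nearest to the member with the largest ratio, of which 1 is not reported here. The members and lists were chosen with earlier results of these data known. Python 3.11.15, numpy 2.4.6, pandas 2.3.3 and matplotlib 3.10.9 were used.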

Additional observations from a re-analysis of the deposited data

Results flagged for a closer look

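Among the genes that could be assessed in both lines, 1 annexin and 5 partners had opposite signs. In each, every array of A2780CBN lay on one side of 0 and every array of A2780CBNDXL on the other. The share of all genes with this pattern was not worked out, so the counts are no result about these lists. ANXA9 had log2 ratios of resistant line over control of 0.87 in A2780CBN and -2.17 in A2780CBNDXL. S100A11 had -1.23 and 1.89, PRKCA 1.99 and -2.57, TRPM7 2.24 and -0.35, PLG 0.73 and -0.83, and SRI, a calcium-binding partner of ANXA7, -0.28 and 0.37. The differences were not tested, since each line is 1 sample. Against the control of the other line's arrays, 2 of these oppositions were absent. There ANXA9 was at -0.25 in A2780CBN and -1.05 in A2780CBNDXL, and TRPM7 at 1.55 and 0.34. The mean ratios of S100A11, PRKCA, PLG and SRI kept opposite signs. Under the 2-fold rule S100A11 and PRKCA passed in both lines with opposite signs, ANXA9 and TRPM7 in 1 line each, and PLG and SRI in neither. The brighter SRI probe, which had values on 2 arrays of A2780CBNDXL and so did not stand for the gene, was at 0.02 in A2780CBN. With 1 sample per line, single samples far from their group could not be looked for.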

How the results depend on the processing

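ANXA1 and ANXA4 in A2780CBN and ANXA1 in A2780CBNDXL passed under all 20 alternatives run on them. ANXA2 in A2780CBNDXL passed under 19, all but the 3-fold limit, and ANXA9 there under 18, all but normexp with loess and the filter on both channels. For ANXA1 in A2780CBN the lowest log2 ratio was -7.86 and the highest -4.87, for ANXA1 in A2780CBNDXL they were -5.52 and -4.25, and no ratio of an annexin that passed changed sign. Leaving out 1 array at a time gave 2 to 3 annexins in A2780CBN, 3 in A2780CBNDXL, 6 to 7 and 8 to 9 partners, 3 to 4 annexins between the lines and 2 to 3 between the controls. With a 1.5-fold limit 5 annexins passed in A2780CBN and 5 between the lines, and with a 3-fold limit none (0) passed between the controls and 4 partners passed in A2780CBNDXL. With normexp and loess 3 partners passed in A2780CBN and 4 in A2780CBNDXL, and against the other line's control 4 did in A2780CBNDXL. In the 3-way ANOVA, CAPN1 and PLAT were not called in A2780CBNDXL. The causes of these shifts were not tested beyond what the limits set by construction. The share of all genes that passed was not worked out under these other settings. The counts therefore show how the calls move and not how the lists stand beside all genes. Over all genes compared, the median log2 difference between the lines was 0.08, and 0.16 under median scaling. No paired analysis was possible because each line is 1 pooled sample, with its arrays as repeats. Signals near background limit ANXA3, ANXA9, ANXA10, S100A10, PLAT and PLA2G4A.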
